A study of Mus musculus with 14 samples.

Results

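The genes described here carry out the breakdown of the branched-chain amino acids leucine, isoleucine and valine. They were chosen by gene symbol as 10 rows of a count table of 23337 genes, and all 10 were found: the transaminases Bcat1 and Bcat2, the subunits Bckdha, Bckdhb and Dbt of the branched-chain keto acid dehydrogenase, its kinase Bckdk and its phosphatase Ppm1k, and the propionate enzymes Pcca, Pccb and Mut. Poly(A) RNA was sequenced from heart muscle cells of 4-week-old mice of the Rosa-Cas9GFP line, which carries Cas9 and GFP. On postnatal day 1 the mice had received adeno-associated virus, which in the gRNA group was AAV-Ryr2gRNA (titled KO, n = 7 libraries), a vector whose name refers to a guide for the gene Ryr2. In the control group it was AAV-Cre (titled Ctrl, n = 7). The heart cells were freed on a Langendorff apparatus and then passed through a fluorescence cell sorter. Both groups come from the Cas9 line and both received a virus. No source used here says whether the guide virus also carried Cre or which promoter drives either cargo, so guide and vector cannot be told apart. Nor do the labels tie the 7 libraries of a group to separate mice. All p-values therefore refer to the variation among libraries, part of which may be technical.

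Leucine, isoleucine and valine cannot be made by mammals, and muscle, heart included, is a main site where their breakdown begins. A transaminase first turns each into its keto acid, by BCAT1 in the cytosol or by BCAT2 in mitochondria. The branched-chain keto acid dehydrogenase of the mitochondrial matrix then removes a carboxyl group irreversibly. BCKDK switches it off by phosphorylating the E1 alpha subunit, and PPM1K removes that phosphate. Separate branches then lead from leucine to acetoacetate and acetyl-CoA, and from valine and isoleucine to propionyl-CoA, which propionyl-CoA carboxylase and methylmalonyl-CoA mutase pass on to the tricarboxylic acid cycle as succinyl-CoA.

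Library totals ranged from 5689335 to 13165662 counts. Ryr2, the calcium release channel of heart muscle and the gene targeted, was at 225 to 371 CPM (counts scaled to a common library size with factors from the trimmed mean of M-values, TMM) in gRNA libraries and at 602 to 763 CPM in controls. The groups did not overlap, and the gRNA mean was 45.8% of the control mean. Markers of cardiomyocytes were abundant in both groups, with a summed level of 10 markers of 103400 ± 10670 CPM in gRNA libraries and 118600 ± 6979 CPM in controls (SD, n = 7 each). The libraries numbered 7 to 10 in the sequencing index are gRNA replicates 4 and 5 and control replicates 4 and 5, and they held more fibroblast, endothelial and macrophage marker RNA than the other libraries of their group. The labels name no batch, so values within these 4 libraries and within the other 10 are given beside the results they touch. Over all 11170 genes tested, 1621 were called higher and 1528 lower in the gRNA group (adjusted p under 0.05, edgeR quasi-likelihood test with Benjamini-Hochberg adjustment). With library totals and no scaling factors the median log2 fold change of all genes was 0.15, against 0.01 with TMM, and the split was 3064 higher and 852 lower. Fold changes below are therefore relative to a median gene held near 0.

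Of the 10 genes, 9 passed the filter on low counts. Of these, 8 were called lower in the gRNA group and 0 higher. Among all genes tested 28.2% were called, 13.7% lower and 14.5% higher. Among the 2044 tested genes of the same level range (mean log2 CPM 5.94 to 7.80), 41.4% were called, 25.8% lower and 15.6% higher. The median log2 fold change was -0.26 over the 9 genes, -0.06 over genes of their level range and 0.01 over all genes tested. The decreases were modest, and the gRNA group kept between 66.8% (Ppm1k) and 84.9% (Bckdk) of the control level of the 8 called genes. Bcat2 did not pass. Bcat1, too scarce to pass the filter, was found in every gRNA library and was nearly absent from controls. In bulk RNA, fewer cells of a type and less RNA per cell cannot be told apart.

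Per length, the genes differed widely in level. On the scale of CPM per kilobase of exon, the control level was highest for Bckdha (128 ± 14.8, SD, n = 7), followed by Bcat2 (73.7 ± 9.58), Bckdhb (70.7 ± 7.27), Bckdk (69.7 ± 3.27) and Mut (68.4 ± 6.10). The ranges of these last 4 genes overlapped from one to the next, and their order changed between libraries: Bcat2 lay above Bckdhb in 3 of 7 controls. Pcca (55.2 ± 4.62), Pccb (29.3 ± 2.42), Dbt (21.2 ± 2.26) and Ppm1k (15.4 ± 3.10) came next, and Bcat1 was last at 0.0145 ± 0.0238. The order of the gRNA levels was the same except that Bckdhb, at 50.9 ± 5.14 CPM per kilobase, came after Bckdk (59.1 ± 4.93) and Mut (52.4 ± 4.14). In those libraries Bcat2 lay above Bckdk in 7 of 7 and Bckdk above Mut in 7 of 7. The E1 subunits Bckdha and Bckdhb thus both exceeded the E2 subunit Dbt per length in both groups, and the kinase exceeded the phosphatase.

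**Figure D1:**
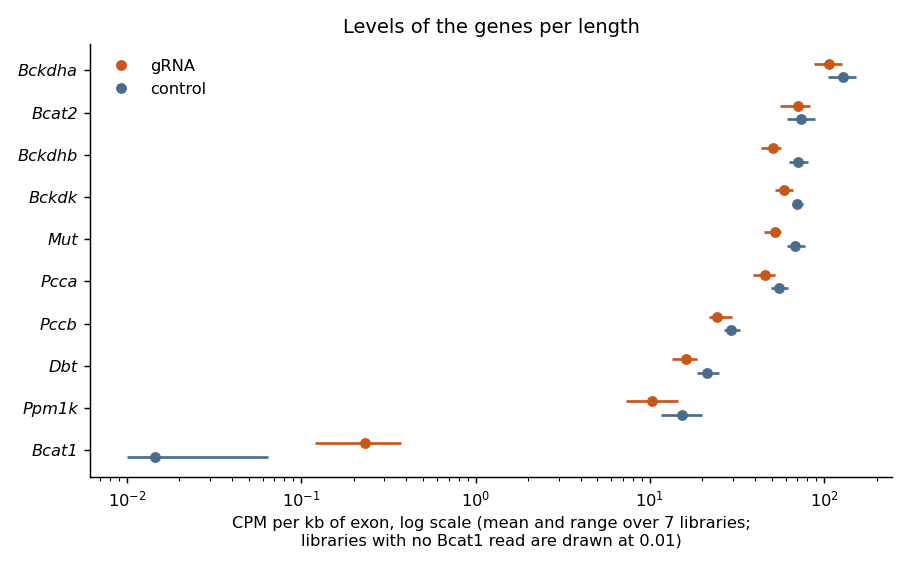
Levels of the 10 genes in CPM per kilobase of exon (log axis), as mean (point) and range (line) over 7 gRNA and 7 control libraries, in the order of the control means. Levels run from 128 for Bckdha to 15.4 for Ppm1k in controls, and Bcat1 lies far below all others at 0.233 in the gRNA group and 0.0145 in controls.

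RefSeq (GRCm38.p6) gave promoter windows for 8 of the 10 genes, with 12 starts among them. The 250 bases before the first listed start are shown for the transaminase pair, whose members differed most in level. They are also shown for Ppm1k and Bckdhb, the called genes with the lowest fold changes. Bcat1, Bcat2 and Bckdhb each have a second RefSeq start, and which start these cells use was not examined. Both strands were searched for the CCAAT box (its letters CCAAT), the GC box (letters GGGCGG) and the TATA box (letters TATAAA), and capitals mark the matches.
Bcat1 promoter, 5′ to 3′: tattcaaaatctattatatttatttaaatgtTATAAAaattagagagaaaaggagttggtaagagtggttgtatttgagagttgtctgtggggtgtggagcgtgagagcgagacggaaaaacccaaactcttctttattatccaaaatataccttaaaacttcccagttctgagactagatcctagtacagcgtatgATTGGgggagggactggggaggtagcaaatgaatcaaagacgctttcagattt
Bcat2 promoter, 5′ to 3′: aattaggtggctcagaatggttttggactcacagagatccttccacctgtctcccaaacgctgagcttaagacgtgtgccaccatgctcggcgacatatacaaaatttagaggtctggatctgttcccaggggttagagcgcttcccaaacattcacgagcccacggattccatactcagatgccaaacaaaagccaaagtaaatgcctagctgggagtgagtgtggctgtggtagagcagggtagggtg
Ppm1k promoter, 5′ to 3′: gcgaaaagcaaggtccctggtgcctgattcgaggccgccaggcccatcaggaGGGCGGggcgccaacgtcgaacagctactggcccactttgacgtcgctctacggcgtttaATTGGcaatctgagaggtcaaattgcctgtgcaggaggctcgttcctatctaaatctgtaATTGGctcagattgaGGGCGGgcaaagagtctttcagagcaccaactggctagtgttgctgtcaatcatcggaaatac
Bckdhb promoter, 5′ to 3′: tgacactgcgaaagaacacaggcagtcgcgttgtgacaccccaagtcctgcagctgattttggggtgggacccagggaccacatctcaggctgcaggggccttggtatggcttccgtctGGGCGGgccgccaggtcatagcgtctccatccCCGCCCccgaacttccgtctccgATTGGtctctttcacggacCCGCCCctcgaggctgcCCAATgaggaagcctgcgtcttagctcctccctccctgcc
The Bcat1 window (chr6:145076158-145076407, minus strand) had the lowest G and C content of these 4, at 37.6%. It held a TATA box match 219 bases and a CCAAT match 53 bases before the start, counted to the first base of the match. The window of the second Bcat1 start (chr6:145048813-145049062) held 56.4% G and C and none of the 3 motifs. The Bcat2 window (chr7:45569903-45570152, plus strand) held 50.4% G and C and none of the 3 motifs. The same held for the window of its second start (chr7:45571029-45571278). The Ppm1k window (chr6:57535488-57535737, minus strand, 54.4% G and C) held 2 CCAAT and 2 GC box matches. The Bckdhb window (chr9:83924887-83925136, plus strand, 63.2% G and C) held 2 CCAAT and 3 GC box matches. The gene model of the count table begins Bckdhb at a later RefSeq start, 83948781, so reads of exons before it were not counted. The window of that later start held 36.4% G and C and none of the 3 motifs. Over all 32851 RefSeq windows, 33.8% held the CCAAT box, 32.7% the GC box and 12.4% the TATA box. Of the 12 windows of these genes 6 held the CCAAT box, 3 the GC box and 2 the TATA box. The E-box CACGTG (6.02% of all windows), the amino acid response motif TGATGNAA (3.45%) and the estrogen-related receptor motif TCAAGGTCA (0.387%) were in none of the 12. That says only that these letters are not in these windows.

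Bcat1 encodes the cytosolic transaminase, which is low in adult muscle and known from brain and growing cells (chr6:144993835-145076157, minus strand, 12 exon blocks, 8102 exonic bases, mm10). It had 16, 9, 8, 19, 20, 14 and 11 reads in gRNA replicates 1 to 7 and 0, 0, 1, 4, 1, 0 and 0 reads in control replicates 1 to 7. The levels were 2.53, 1.19, 1.084, 3.01, 2.42, 2.01 and 0.966 CPM in gRNA libraries and at most 0.525 CPM in controls. Every gRNA library thus lay above every control, and 4 of 7 controls had no read. Summed over the groups, 97 reads stood against 6, a fold of 15.4 per scaled library size with an exact 95% interval of 6.82 to 43.0 that covers counting error only. Under an exact two-sided permutation test over the 3432 assignments of the libraries, p was 0.00058, the lowest value possible. That test was chosen after Bcat1 was seen to fail the filter. Without a filter edgeR gave Bcat1 a log2 fold change of 3.80 (SE 0.58) with an adjusted p of 9.1e-05, in a fit where 17.1% of 17091 genes were called, 9.39% higher and 7.74% lower. Among genes with a count, 4.14% had all gRNA libraries above all controls. The authors' deposited table, which does not state its direction and lists Ryr2 at -1.14, gave Bcat1 a log2 fold change of 3.98 with an adjusted p of 4.5e-07.

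Some markers of macrophages were also called higher in the gRNA group. Of 10 tested, 3 were called (Lyz2, Emr1 and C1qb), against 14.5% of all genes tested called higher. The other 7 were not called, and all 10 fold changes were positive. The summed level of the list was 64.0 to 460 CPM in gRNA libraries and 25.8 to 124 CPM in controls, so the groups overlapped. No marker in the table was at 0 in all libraries. Within the groups, gRNA replicate 4 was highest in both Bcat1 (3.01 CPM) and the marker sum (460 CPM), and gRNA replicate 7 was lowest in both (0.966 and 64.0 CPM). Control replicate 4 had the highest control level of Bcat1 (0.525 CPM) and the second highest marker sum (120 CPM). Other libraries did not follow this order. In gRNA replicate 1 Bcat1 was second highest (2.53 CPM) while the marker sum was second lowest (76.1 CPM). Control replicate 5 had the highest control marker sum (124 CPM) and 0.142 CPM of Bcat1. Between the groups, the marker sum outside library indices 7 to 10 was 64.0 to 101 CPM in 5 gRNA libraries and 25.8 to 63.0 CPM in 5 controls. Within these indices it was 304 to 460 CPM in gRNA replicates 4 and 5 and 120 to 124 CPM in control replicates 4 and 5. In each set the groups thus did not overlap in the marker sum, nor did they in Bcat1. Across the sets, the 5 gRNA libraries outside the indices lay below control replicates 4 and 5 in the marker sum. Their Bcat1 level was 0.966 to 2.53 CPM, against 0.525 and 0.142 CPM in those controls. Among the 10 libraries outside these indices the permutation test of Bcat1 gave a difference of 1.27 on the log2(CPM + 1) scale, against 1.33 in all libraries (p = 0.0079, exact, the smallest that 252 assignments allow). Within the 4 libraries of indices 7 to 10 the difference was 1.49 (exact p = 0.33, the smallest that 6 assignments allow). As every gRNA library lay above every control, each subset had to give its smallest p. These subset p-values therefore add no support. With 0.1 CPM added in place of 1 CPM, the difference in all libraries was 3.44. Smooth muscle and pericyte markers were called higher for 3 of 7 tested (Acta2, Cspg4 and Tagln), against 14.5% of all genes tested. Their summed level was 1102 to 1950 CPM in gRNA libraries and 578 to 966 CPM in controls. In this sum, as in Bcat1, all gRNA libraries lay above all controls. Without the filter on low counts 4 of 8 of these markers and 4 of 14 macrophage markers were called higher, against 9.39% of all genes. Fibroblast markers (9 tested, 167 to 1252 CPM in gRNA libraries, 190 to 617 CPM in controls) and endothelial markers (10 tested, 222 to 864 CPM in gRNA libraries, 277 to 747 CPM in controls) were called for 0. Of the red blood cell markers, the globin genes Hba-a1, Hba-a2, Hbb-b1 and Hbb-b2 were at 0 in all libraries. The globin entry Beta-s had reads in every library. The summed level of the red blood cell list was 0.862 to 72.9 CPM in gRNA libraries and 0.863 to 16.1 CPM in controls. The part of these cells in the Bcat1 reads was not tested.

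**Figure D2:**
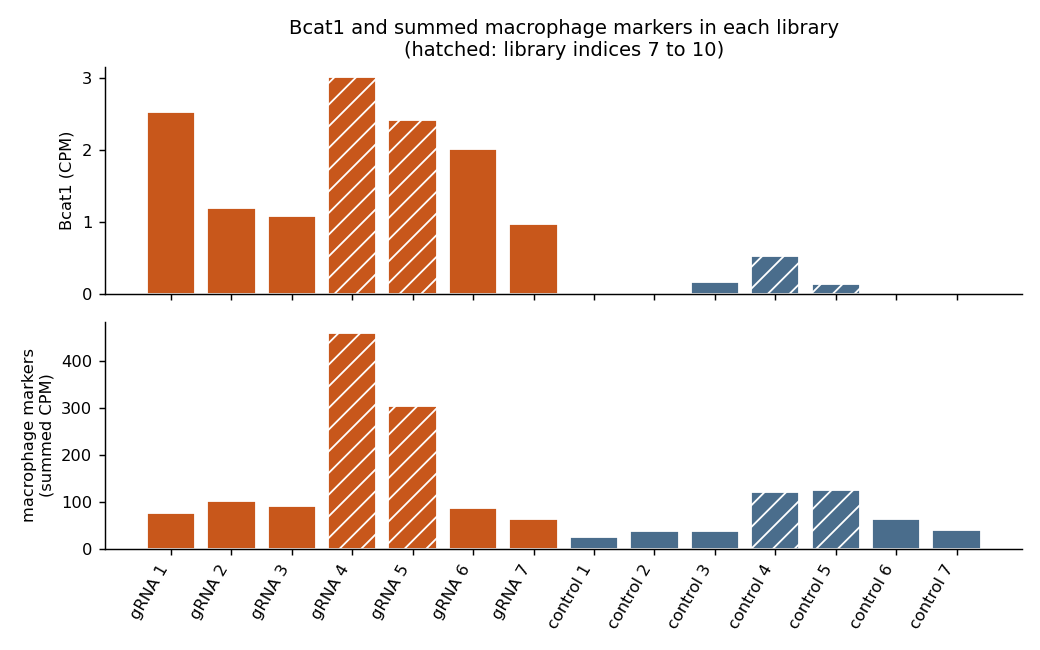
Bcat1 (upper bars, CPM) and the summed macrophage markers (lower bars, summed CPM) in each of 7 gRNA (left) and 7 control libraries (right); hatched bars are library indices 7 to 10. All gRNA bars of Bcat1 exceed the highest control bar of 0.525 CPM. Outside indices 7 to 10 the marker sums of gRNA libraries (64.0 to 101 CPM) exceed those of controls (25.8 to 63.0 CPM). Within these indices they do so too (304 to 460 against 120 to 124 CPM). Over all libraries the marker sums of the groups overlap.

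Bcat2 encodes the mitochondrial transaminase, the main one of muscle (chr7:45570153-45589710, plus strand, 14 exon blocks, mm10). Its level was 123, 164 and 182 CPM in gRNA libraries (lowest, median and highest) and 134, 169 and 195 CPM in controls. The groups overlapped almost entirely. It differed by -0.05 on the log2 scale (SE 0.095, adjusted p = 0.74 in the edgeR quasi-likelihood test), and by 0.08 with library totals and no scaling factors. Its exons share 50 bases with 0610005C13Rik on the opposite strand, which held 31 reads in all libraries together. Within a library the ratio of Bcat1 to Bcat2 does not depend on the scaling but for the 1 CPM added to each gene. As 4 of 7 controls had no Bcat1 read, the control values are largely set by this added amount and are not ratios of reads. With it, the ratio was 0.0108 to 0.0283 in gRNA libraries and 0.0051 to 0.0113 in controls. It was higher in the gRNA group by 1.39 on the log2 scale (exact two-sided permutation p = 0.0012, adjusted p = 0.0047 over the 4 ratios tested). In 7 of 7 gRNA libraries it lay above the control median. The size of the log2 difference depends on the amount added: with 0.1 CPM in place of 1 CPM it was 3.50 (adjusted p = 0.0023, exact permutation). As Bcat2 hardly differed, the ratio mostly restates the difference of Bcat1 itself, 1.33 on the log2(CPM + 1) scale. Its p is therefore no separate support. The level of Bcat1 was highest in gRNA replicate 4, with 19 reads against 887 of Bcat2. Even there the mitochondrial gene held nearly all transaminase reads.

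The keto acid dehydrogenase is built from E1 alpha (Bckdha), E1 beta (Bckdhb), the E2 core with its lipoyl arms (Dbt) and the E3 subunit Dld, which it shares with other complexes. Bckdhb (chr9:83948781-84124240, plus strand, 11 exon blocks) had 60.9, 71.2 and 78.9 CPM in gRNA libraries (lowest, median and highest) and 88.4, 96.7 and 114 CPM in controls. All 7 gRNA libraries lay below the lowest control. In edgeR its log2 fold change was -0.47 (SE 0.077) with an adjusted p of 2.3e-04. Bckdhb and Mut were the 2 of 9 tested genes whose groups did not overlap, and among all genes tested 4.71% had all gRNA libraries below all controls.

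Dbt (chr3:116513079-116549981, plus strand, 11 exon blocks) had 43.8, 53.1 and 61.4 CPM in gRNA libraries and 61.4, 66.7 and 82.1 CPM in controls (lowest, median and highest). The groups met at their edges, where gRNA replicate 1 lay level with control replicate 6. Dbt had a log2 fold change of -0.40 (SE 0.084, adjusted p = 0.0016 in edgeR). Bckdha (chr7:25629852-25658761, minus strand, 9 exon blocks) had 154, 188 and 225 CPM in gRNA libraries and 187, 227 and 270 CPM in controls. Its groups overlapped more, with 3 of 7 gRNA libraries below the lowest control. Bckdha had a log2 fold change of -0.26 (SE 0.093), and its adjusted p of 0.049 lay at the threshold. Any of 10 libraries, when left out, ended this call: gRNA replicates 1, 4, 5, 6 and 7 and control replicates 1, 2, 3, 6 and 7 (log2 -0.28 to -0.21, adjusted p = 0.050 to 0.11 in edgeR). Without the filter on low counts its adjusted p was 0.072.

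The fold change of Bckdhb was lower than that of its E1 partner, and the difference was tested within libraries. The ratio of Bckdha to Bckdhb was 2.64 ± 0.304 in gRNA libraries and 2.29 ± 0.229 in controls (SD, n = 7 each, of CPM + 1). The log2 difference was 0.21 (exact two-sided permutation p = 0.031, adjusted p = 0.059 over 4 ratios), with all 7 gRNA libraries above the control median. It did not pass the correction. It passed on leaving out gRNA replicate 5 or 6 or control replicate 1 or 3 (adjusted p = 0.038 to 0.049). Within the 10 libraries outside indices 7 to 10 it was 0.15, and within the 4 libraries of these indices 0.35.

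The kinase and the phosphatase of the complex were both lower. Ppm1k (chr6:57506502-57535426, minus strand, 7 exon blocks) had 40.7, 55.6 and 80.4 CPM in gRNA libraries and 64.3, 88.7 and 111 CPM in controls (lowest, median and highest). It was the most variable of the 9 tested genes, with a coefficient of variation of 24.7% in the gRNA group and 20.2% in controls. The gRNA range reached into the control range through replicates 1 and 2, and 5 of 7 gRNA libraries lay below the lowest control. Its log2 fold change of -0.58 (SE 0.152, adjusted p = 0.0082, edgeR) was the lowest of the 9. Bckdk (chr7:127904073-127909664, plus strand, 12 exon blocks) had 150, 169 and 190 CPM in gRNA libraries and 190, 199 and 217 CPM in controls. It varied little, by 8.34% and 4.70% of its mean, and 6 of 7 gRNA libraries lay below the lowest control. Bckdk had a log2 fold change of -0.24 (SE 0.057, adjusted p = 0.0050 in edgeR).

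The ratio of the kinase to the phosphatase was 3.05 ± 0.657 in gRNA libraries and 2.38 ± 0.415 in controls (SD, n = 7 each, of CPM + 1). Their ranges overlapped, from 2.12 to 4.07 and from 1.79 to 2.92, and 4 of 7 gRNA libraries exceeded the highest control. The log2 difference was 0.35 (exact two-sided permutation p = 0.044, adjusted p = 0.059 over 4 ratios), which did not pass the correction. Within library indices 7 to 10 it was 0.22, and in the other 10 libraries 0.39. It passed without gRNA replicate 1 (log2 0.43, adjusted p = 0.026), and the adjusted p ranged from 0.026 to 0.12 over the libraries left out. A transcript ratio measures neither the proteins nor the phosphorylation of the complex.

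**Figure D3:**
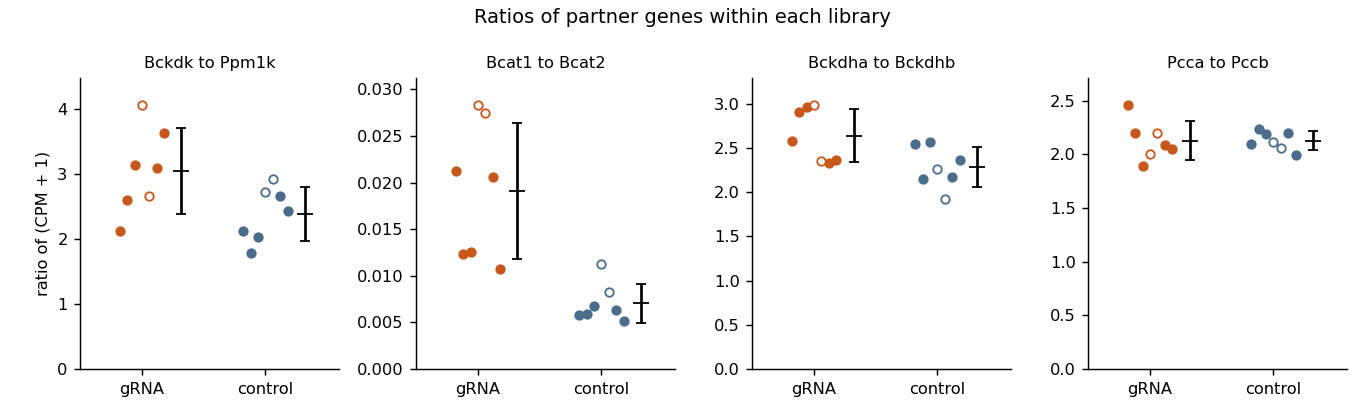
Ratios of 4 gene pairs within each library (CPM + 1 of the first gene over the second) in 7 gRNA (left) and 7 control libraries (right); bars are mean ± SD and open points are library indices 7 to 10. Of the 4 ratios, Bcat1 to Bcat2 passed the correction (adjusted p = 0.0047, exact permutation), which mostly restates the difference in Bcat1. Pcca to Pccb was 2.13 in both groups.

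Propionyl-CoA carboxylase consists of the biotin-carrying alpha subunit (Pcca) and the beta subunit (Pccb), and methylmalonyl-CoA mutase (Mut, now named Mmut) needs vitamin B12 as its cofactor. Mut (chr17:40934685-40961989, plus strand, 13 exon blocks) had 166, 195 and 207 CPM in gRNA libraries and 226, 246 and 286 CPM in controls (lowest, median and highest). Every gRNA library lay below every control. Mut had a log2 fold change of -0.38 (SE 0.066) with an adjusted p of 3.6e-04 in edgeR. Pcca (chr14:122534328-122889944, plus strand, 24 exon blocks) had 101, 114 and 136 CPM in gRNA libraries and 129, 144 and 161 CPM in controls. Pccb (chr9:100982038-101034875, minus strand, 15 exon blocks) had 50.01, 53.8 and 67.6 CPM in gRNA libraries and 61.2, 68.0 and 75.6 CPM in controls. For each of these subunits 5 of 7 gRNA libraries lay below the lowest control. Both had a log2 fold change of -0.26 (adjusted p = 0.013 for Pcca and 0.015 for Pccb). The ratio of Pcca to Pccb was 2.13 ± 0.183 in gRNA libraries and 2.13 ± 0.0868 in controls (SD, n = 7 each; log2 difference -0.004, exact permutation p = 0.93).

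**Figure D4:**
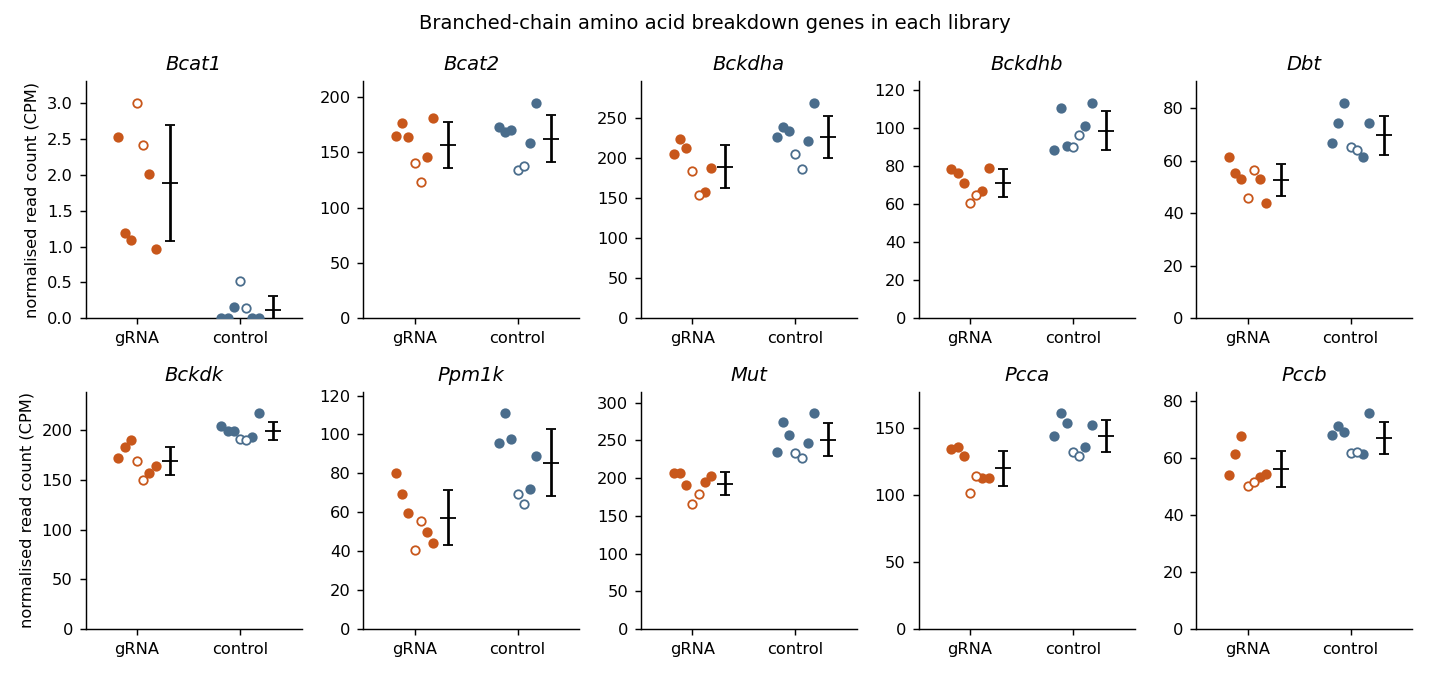
Normalised read count (CPM) of the 10 genes in each of 7 gRNA (left) and 7 control libraries (right); bars are mean ± SD, and open points are library indices 7 to 10. The groups do not overlap for Bcat1, Bckdhb and Mut and overlap almost entirely for Bcat2.

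Within the 10 libraries outside indices 7 to 10, 7 of the 9 tested genes were called lower, against 11.6% of all genes. The exception besides Bcat2 was Pccb (log2 -0.25, adjusted p = 0.051, edgeR). Within the 4 libraries of indices 7 to 10, with 2 libraries a group, Bckdhb (-0.61) and Mut (-0.45) were called lower, against 6.59% of all genes. The log2 fold changes there of the 6 genes that lost their call were -0.51 for Ppm1k, -0.37 for Dbt, -0.33 for Pccb, -0.32 for Pcca, -0.30 for Bckdk and -0.26 for Bckdha, with adjusted p between 0.057 and 0.16. All 9 genes had negative fold changes in both sets of libraries. With library totals and no scaling factors, the calls of Bckdha (-0.12), Bckdk (-0.11), Pcca (-0.13) and Pccb (-0.13) were lost, and Bckdhb, Dbt, Ppm1k and Mut remained called. Cardiomyocyte markers themselves were called lower for 6 of 10, against 13.7% of all genes tested. Their median log2 fold change was -0.27, close to that of the 9 genes. Without the filter on low counts 4 of 10 were called, as Tnnt2 (adjusted p = 0.051) and Actc1 (0.053) were lost. The part of cardiomyocyte content in these decreases was not tested.

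Nearly all other enzymes of the pathway were lower as well. All 19 genes listed as downstream enzymes were tested, with a median log2 fold change of -0.36. Of these, 18 were called lower and 0 higher, against 13.7% and 14.5% of all genes tested. The exception was Mmab, which makes adenosylcobalamin for the mutase (log2 -0.16, adjusted p = 0.21, edgeR). Without the filter on low counts 16 of 19 were called lower, as Acad8 (adjusted p = 0.065) and Mmadhc (0.077) were lost. On the leucine branch Ivd, the isovaleryl-CoA dehydrogenase (-0.51), the methylcrotonyl-CoA carboxylase subunits Mccc1 (-0.48) and Mccc2 (-0.43) and the hydratase Auh (-0.32) were called lower. On the valine branch 4 of 4 were called lower, with Hibadh, the 3-hydroxyisobutyrate dehydrogenase, at -0.49 and Hibch at -0.43, and Aldh6a1 (-0.32) and Acad8 (-0.20) less so. On the isoleucine branch 3 of 3 were called lower, namely Acat1 (-0.53), Hsd17b10 (-0.36) and Acadsb (-0.23).

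Dld, the E3 subunit, was at 582 to 748 CPM in gRNA libraries and 826 to 1079 CPM in controls, without overlap (log2 -0.50, SE 0.069, adjusted p = 4.1e-05, edgeR). Mcee, the epimerase between the carboxylase and the mutase, had the lowest fold change of the 19, at 65.2 to 93.7 CPM in gRNA libraries and 106 to 146 CPM in controls (log2 -0.59, SE 0.083, adjusted p = 5.4e-05). In 8 of the 19 genes the gRNA libraries all lay below the controls, against 4.71% of all genes tested. Echs1 (-0.35), shared by valine and isoleucine, Oxct1 (-0.44), which activates ketone bodies, and the cobalamin genes Mmaa (-0.35) and Mmadhc (-0.19) were also called lower.

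Several genes that bring branched-chain amino acids into cells or load them onto tRNA in the cytosol were higher in the gRNA group. Of 6 tested genes listed as carriers 3 were called higher and 0 lower, against 14.5% and 13.7% of all genes tested. Whether each of the 6 carries branched-chain amino acids in these cells was not tested. The 3 called were Slc7a5, the light chain of the large neutral amino acid exchanger (68.9 to 174 CPM in gRNA libraries, 4.83 to 7.80 CPM in controls, log2 4.45), its heavy chain Slc3a2 (log2 1.37) and Slc43a2 (0.31, adjusted p = 0.040, edgeR). The call of Slc43a2 was lost without the filter on low counts (adjusted p = 0.057), which left 2 carriers called higher. Slc25a44, the mitochondrial carrier of branched-chain amino acids, did not pass (27.7 to 39.9 CPM in gRNA libraries, 28.2 to 32.8 CPM in controls, log2 0.03, SE 0.079), nor did Slc7a8 (0.81) and Slc43a3 (-0.05). Slc43a1 was too low to be tested.

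The cytosolic tRNA synthetases for leucine, isoleucine and valine were higher without overlap of the groups. Lars had 128, 167 and 198 CPM in gRNA libraries and 80.8, 87.3 and 89.5 CPM in controls (lowest, median and highest, log2 0.95, SE 0.093, adjusted p = 1.3e-06, edgeR). Iars had 157 to 245 CPM in gRNA libraries and 105 to 124 CPM in controls (log2 0.87). Vars had 86.8 to 109 CPM in gRNA libraries and 60.1 to 66.3 CPM in controls (log2 0.62). Of the mitochondrial synthetases Vars2 was called lower (-0.23, adjusted p = 0.023 in edgeR), and Iars2 (-0.16) and Lars2 (-0.15) did not pass. Lars2 stood at 3287 to 4648 CPM in gRNA libraries and 3371 to 4778 CPM in controls. That is far above Iars2, at 134 to 177 and 154 to 178 CPM, and the source of the Lars2 reads was not examined. Among all genes tested 5.84% had all gRNA libraries above all controls.

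**Figure D5:**
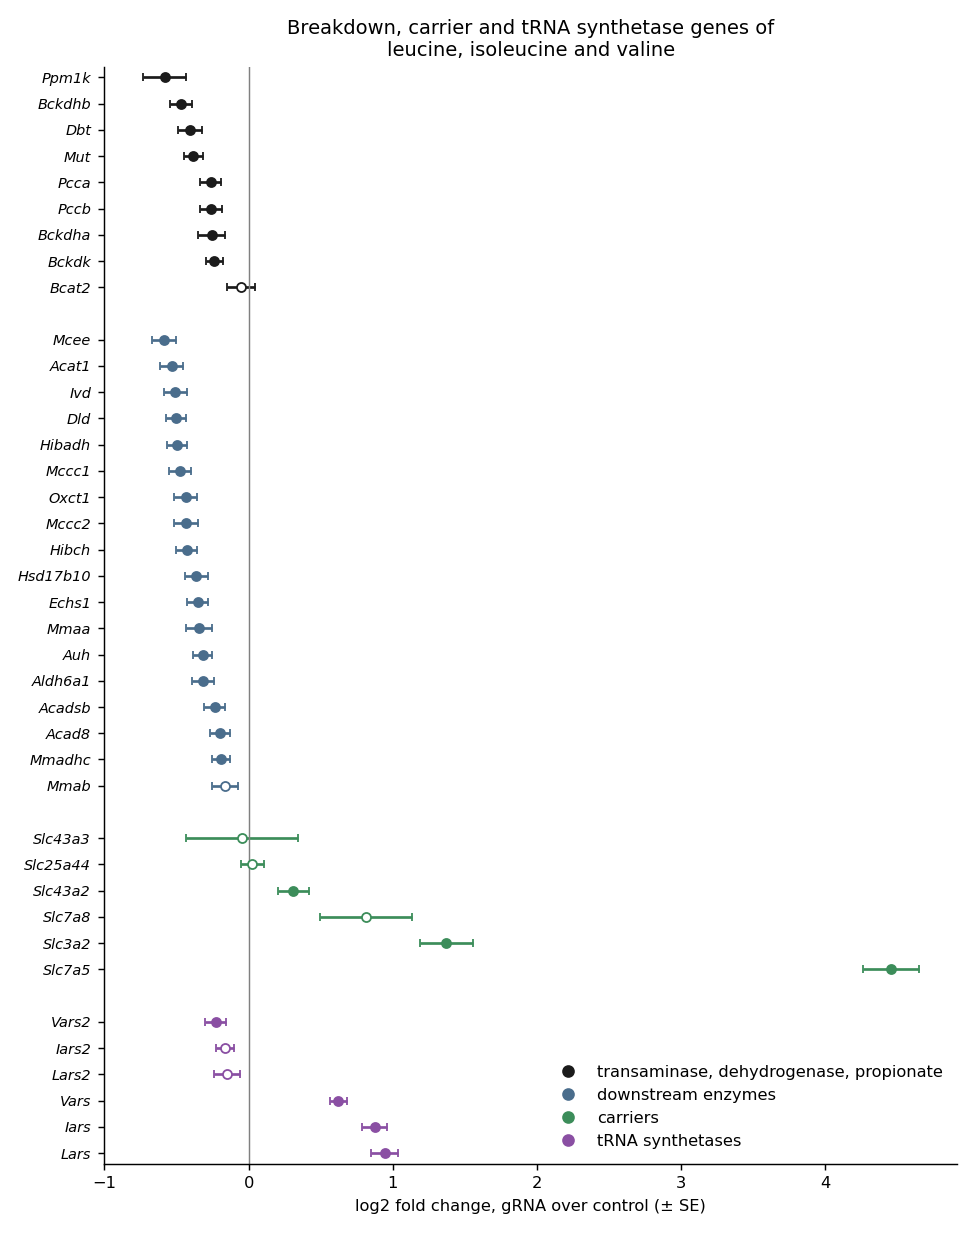
Log2 fold changes (gRNA over control, ± SE, edgeR) of 9 tested breakdown genes, 18 of the downstream enzymes, 6 genes listed as carriers and 6 tRNA synthetases. Filled points were called at an adjusted p under 0.05. Breakdown genes lie between -0.58 and -0.05 and downstream enzymes between -0.59 and -0.16, while Slc7a5 reaches 4.45 and the cytosolic synthetases 0.62 to 0.95.

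The closest relatives of the keto acid dehydrogenase are the pyruvate and oxoglutarate dehydrogenases, which share Dld and the same 3-part build. Of 14 genes of these complexes and their regulators 8 were called lower and 0 higher (median log2 -0.32), against 13.7% and 14.5% of all genes tested. The 8 were the core genes Pdhb (-0.58), Pdhx (-0.55), Dlat (-0.45), Pdha1 (-0.30), Dlst (-0.44), Ogdh (-0.33) and Ogdhl (-1.22) and the kinase Pdk2 (-0.45). The kinases Pdk1 (-0.09), Pdk3 (0.19) and Pdk4 (-0.05), the phosphatases Pdp1 (-0.11) and Pdp2 (-0.16) and Pdpr (-0.21) did not pass. In the tricarboxylic acid cycle list 13 of 15 were called lower (median -0.46), with Sucla2 at -0.67, while Sdhc (-0.25) was among those that did not pass. In fatty acid oxidation 16 of 18 were called lower (median -0.49), with Acaa2 at -0.73. Without the filter 15 were called, as Acadl was lost. Cpt1a (-0.05) and Cpt1b (0.02) did not pass. Cpt1b was at only 6.17 to 9.66 CPM in gRNA libraries and 6.55 to 11.6 CPM in controls. Cpt1a was at 36.3 to 66.0 and 49.0 to 62.6 CPM. Overlaps of the Cpt1b exons with other genes were not examined. The median of the 9 breakdown genes, -0.26, was nearer to 0 than the medians of these lists. Whether the lists differ was not tested.

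Among regulators, Klf15, a transcription factor known to drive branched-chain amino acid breakdown genes in heart, varied widely and did not pass (36.2 to 135 CPM in gRNA libraries, 27.3 to 91.8 CPM in controls, log2 0.19, SE 0.315, adjusted p = 0.70, edgeR). Ppargc1a (-0.18) and Esrra (-0.004) did not pass, and Ppara was called lower (-0.38, adjusted p = 0.049), a call lost without the filter on low counts (adjusted p = 0.058). Myc was higher without overlap of the groups (14.1 to 48.7 CPM in gRNA libraries, 1.46 to 5.52 CPM in controls, log2 2.98, SE 0.307, adjusted p = 2.4e-06). Sesn2, a cytosolic leucine sensor that binds GATOR2, was also higher without overlap (log2 2.36, adjusted p = 5.2e-04). Atf4 was called higher (log2 0.61, adjusted p = 0.010), with 64.9 to 162 CPM in gRNA libraries and 53.2 to 85.1 CPM in controls, so that its groups overlapped.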

How the data were processed

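Poly(A) RNA of 14 libraries (7 per group) was analysed from the deposited table of raw read counts per gene, which is not normalized. STAR, featureCounts, DESeq, DESeq2 and build mm10 are named, without versions or a strand setting, per the submitters' processing notes. SMART-Seq v4 does not mark strand. The authors' deposited table of log2 fold changes, mean signal, Wald score and adjusted p-value was used only where named. Counts were tested with edgeR 4.0.16 (R 4.3.3): filterByExpr, TMM scaling, quasi-likelihood F test without covariates, two-sided, Benjamini-Hochberg adjustment over 11170 genes, called under 0.05. CPM used TMM-scaled library sizes. Ratios were compared by exact permutation (Python 3.11.15) on log2 of CPM + 1. Fits were tested on simulated data. No 2 libraries of a group agreed within sampling noise (chi-square per degree of freedom 4.58 to 26.9). The number of unmapped columns was 0.

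The 10 genes and the lists were chosen with earlier results of these data known, so no list is independent evidence. Named genes were the 10 genes, Ryr2, Klf15, Atf4, and up to 4 called genes with the smallest adjusted p in each list, plus genes that make up counts of at most 5. Further downstream enzymes, genes of the dehydrogenase complexes and regulators were named beyond this rule, which was decided after their values were seen, as were the branches, Sucla2 and Acaa2. Some genes of the lists are not reported here. Alternatives were DESeq2 1.42.0, DESeq2 size factors, no filter, a replicate block, a term for library indices 7 to 10, subsets of libraries, leaving out each library, another pseudocount, and unscaled library totals (added later). Counts of reads without molecular identifiers carry intervals for counting error only.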

Additional observations from a re-analysis of the deposited data

Results flagged for a closer look

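One value stood far from the rest of its group: Bcat1 in control replicate 4 was 0.525 CPM (4 reads), against 0 to 0.158 CPM in the other 6 controls. It was 1 of 28 groups of values examined. Chance flags about 1 in 20 groups of continuous values. That rate was not worked out for counts as low as these, with 4 of 7 controls at 0. Control replicate 4 is one of the 4 libraries of indices 7 to 10 and had a macrophage marker sum of 120 CPM. Without it the Bcat1 difference was 1.41 on the log2(CPM + 1) scale, against 1.33 in all libraries. The exact permutation p of 0.00058 was the lowest possible, as it had to be where the groups do not overlap. The sizes of these differences depend on the 1 CPM added: with 0.1 CPM the difference in all libraries was 3.44.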

How the results depend on the processing

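Of 491 recomputed values, 442 kept their direction and their side of the threshold, or stayed within 1.5 times the count. DESeq2, DESeq2 size factors and the term for library indices 7 to 10 left 8 of the 10 genes called lower, and no filter left 7; without a filter and in DESeq2, Bcat1 was called higher (1 gene against 0). Within library indices 7 to 10 the calls were 689 higher and 777 lower over all genes, 2 lower and 1 higher (Bcat1) among the 10 genes, 12 lower in the rest of the pathway (19 in all libraries), and 1 higher (Pdk4) among the dehydrogenase, tricarboxylic acid cycle and fatty acid lists (0 in all libraries). In these 4 libraries Bcat1 passed the filter through the gRNA group alone, so its call there is no separate support. The Bcat1 to Bcat2 log2 ratio was 1.54 there (adjusted p = 0.67, where no p can pass), and Pcca to Pccb was 0.007. With unscaled library totals, chosen after the data were seen, the calls were 3064 higher and 852 lower over all genes and 4 lower among the 10 genes, and Bcat2 turned to 0.081 (adjusted p = 0.42).

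Leaving out each library in turn gave 1433 to 1664 higher and 1284 to 1527 lower calls over all genes, and 7 to 8 lower and 0 higher among the 10 genes. It gave 15 to 20 lower and 5 to 6 higher in the rest of the pathway, and 36 to 38 lower and 0 higher in the comparison lists. The log2 fold change of Ryr2 ranged from -1.18 to -1.05. The log2 ratio of Bckdk to Ppm1k ranged from 0.27 to 0.43, Bcat1 to Bcat2 from 1.28 to 1.51, Bckdha to Bckdhb from 0.17 to 0.24, and Pcca to Pccb from -0.040 to 0.023, positive without gRNA replicates 3, 4 or 7 or control replicates 2, 3 or 6.

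The replicate numbers were not taken to pair libraries: deviations of same-numbered libraries correlated at 0.0614 to 0.533, above 0.1 in 6 of 7 pairs, and 2 of 7 gRNA libraries correlated best with their own number. With the replicate block the calls over all genes were 1922 higher and 1848 lower, 8 of the 10 genes were called lower, and the Bckdha to Bckdhb log2 ratio of 0.21 passed (adjusted p = 0.031).

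Bcat1 rests on 103 reads in all, and small folds such as those of Bckdha and Bckdk depend on the scaling.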
